A study of Mus musculus with 36 samples.

Results

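ATAC-seq of cultured mouse mesenchymal stem cells (MSCs) marked 2216 genomic regions as open in lung-derived MSCs (P-MSCs) and in no other tissue of the study. These regions are the subject here. They were selected on the ATAC-seq peak lists themselves. Lines of a list with the same chromosome, start and end were merged into 1 region. A region of the P-MSC list was kept if −log10 q, the significance of a peak over the background, was above 7 at any of its summits and if no line of the other 3 lists overlapped it by 1 bp or more, whatever the q of that line. Of the 55648 regions of the P-MSC list past this threshold, 3.98% were kept. The 4 lists together held 223053 regions past it.

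The study compared MSCs of femoral bone marrow (fBM-MSCs), vertebral bone marrow (vBM-MSCs), adipose tissue (A-MSCs) and lung, with no treatment in any group. Cells of all groups came from C57BL6/J mice bought at 8 weeks of age, with the 4 tissues taken from the same 3 mice, and were used within 3 passages in culture. Marrow MSCs were isolated from crushed bone, whereas lung and adipose MSCs were released with collagenase, so in the comparison with marrow MSCs tissue and isolation cannot be told apart. Each tissue had 1 peak list, made from pooled sequencing samples (6 samples of 3 replicates), so no ATAC-seq value has a replicate error and a region may come from 1 culture. RNA-seq was analysed for 3 P-MSC, 3 fBM-MSC, 2 vBM-MSC and 3 A-MSC libraries, with 19569650 to 40517739 expected counts each. The ATAC-seq depth is not given in the lists.

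Open chromatin outside start sites often marks enhancers, stretches of DNA where transcription factors bind and from which they act on genes that may lie far away. Sites open in every related cell type are frequently promoters, while sites open in 1 cell type are mostly distal and often carry motifs of the factors of that lineage. In lung mesenchyme the best known of these factors are the T-box factors Tbx4 and Tbx5, which are needed for lung bud and airway growth, and the forkhead factor Foxf1, a target of hedgehog signalling from the epithelium. AP-1, the Fos and Jun dimer, opens chromatin in many cultured fibroblast-like cells.

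The 9 sequences shown are each 75 bases on either side of the strongest summit, on the plus strand of GRCm38 (mm10) and read from the RefSeq assembly. The first 3 are the strongest members nearest to Tbx5 (chr5:119836948-119837098, in an exon 2.36 kb from the start site), Tbx4 (chr11:85894801-85894951, intronic) and Foxf1 (chr8:121086248-121086398, intronic), chosen because these genes had higher RNA in P-MSCs. The other 6 are among the strongest members with a T-box or a forkhead motif in the printed window, and were picked after the motif results were seen. The nearest start sites of these 6 were those of Cpne8 (chr15:90717858-90718008, intergenic), Dync2li1 (chr17:84628668-84628818, intronic), Cracr2a (chr6:127641315-127641465, intronic), Mrc2 (chr11:105268482-105268632, intronic), H60c (chr10:3274254-3274404, intergenic) and 1700099I09Rik (chr13:102985748-102985898, intronic), and lay 2.27 to 80.1 kb away, except that of 1700099I09Rik at 226 kb. Capitals mark the letters AGGTGT (T-box), TGTTTAC (forkhead) and TGACTCA or TGAGTCA (AP-1) on either strand.
Tbx5 member: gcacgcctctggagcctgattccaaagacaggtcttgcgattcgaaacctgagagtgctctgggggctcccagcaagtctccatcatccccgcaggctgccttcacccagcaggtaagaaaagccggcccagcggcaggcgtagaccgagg
Tbx4 member: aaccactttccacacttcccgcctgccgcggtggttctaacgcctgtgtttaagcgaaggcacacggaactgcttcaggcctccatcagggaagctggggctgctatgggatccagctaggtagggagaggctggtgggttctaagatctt
Foxf1 member: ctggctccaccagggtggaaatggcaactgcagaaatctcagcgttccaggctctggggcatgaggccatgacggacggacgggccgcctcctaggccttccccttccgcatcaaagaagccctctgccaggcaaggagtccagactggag
Cpne8 member: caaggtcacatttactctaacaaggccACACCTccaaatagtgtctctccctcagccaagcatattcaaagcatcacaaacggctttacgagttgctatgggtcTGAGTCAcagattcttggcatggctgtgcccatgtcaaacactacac
Dync2li1 member: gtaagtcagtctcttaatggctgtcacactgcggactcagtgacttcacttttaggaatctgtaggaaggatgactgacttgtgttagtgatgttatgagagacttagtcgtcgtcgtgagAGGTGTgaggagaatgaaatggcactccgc
Cracr2a member: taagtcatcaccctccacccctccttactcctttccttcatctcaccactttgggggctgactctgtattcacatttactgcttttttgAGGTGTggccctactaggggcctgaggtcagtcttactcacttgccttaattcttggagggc
Mrc2 member: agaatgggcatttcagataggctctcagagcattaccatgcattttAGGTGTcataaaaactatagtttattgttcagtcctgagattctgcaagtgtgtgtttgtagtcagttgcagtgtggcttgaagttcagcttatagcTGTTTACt
H60c member: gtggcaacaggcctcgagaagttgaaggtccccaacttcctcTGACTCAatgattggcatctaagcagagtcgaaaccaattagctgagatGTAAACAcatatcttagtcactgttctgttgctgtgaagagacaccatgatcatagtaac
1700099I09Rik member: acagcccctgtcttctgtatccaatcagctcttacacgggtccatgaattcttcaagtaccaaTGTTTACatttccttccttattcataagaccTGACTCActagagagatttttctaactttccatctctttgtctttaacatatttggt

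The members at Tbx5, Tbx4 and Foxf1 held none of the 3 motifs in the printed window. The members listed under Cpne8, H60c and 1700099I09Rik held an AP-1 match beside their T-box or forkhead match, and the member near Mrc2 held both a T-box and a forkhead match.

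The members were weak peaks. Fold enrichment, the height of a summit over the genome-wide background, had a median of 6.25 in the members (quartiles 5.89 and 7.36), against 12.1 in the 40194 P-MSC regions that overlapped all 3 other lists. The median −log10 q was 9.09 against 27.3 and the median length 348 bp against 600 bp. Because the rule used these values, they are a description. The regions found by the same rule in the other lists (5032 of femoral, 2325 of vertebral and 2806 of adipose MSCs) also had a median fold enrichment of 6.25. The members just inside the threshold had a −log10 q of 7.19, and the strongest regions just outside it 6.285. A further 8414 regions of the P-MSC list overlapped no other list and lay below the threshold. For 245 members (11.1%) a line of another list lay within 500 bp, and the median distance to one was 3918 bp. When weak lines of the other lists (−log10 q of 7 or less) were ignored, 6978 P-MSC regions overlapped no line, of which the 2216 members were the part without even a weak line elsewhere.

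The strongest member, chr8:123426190-123430145, had a fold enrichment of 27.6, 7 summits and a length of 3956 bp, the longest of all members. It was intergenic, 15.2 kb from the start site of Def8, and its closest line in another list was 3.27 kb away. The next, chr1:28328518-28329397, had a fold enrichment of 25.4 and was the most isolated member, with no line of another list within 274 kb. The nearest start site was 445 kb away. The other 8 had values from 16.6 to 20.6. Of all 10, only the members near Def8, Cpne8 (38.5 kb) and Ablim3 (1.70 kb, in an intron) lay within 100 kb of a start site. Of the 10, 3 were intronic, in Ablim3, in Pcdh9, a protocadherin, and in Hmcn1, an extracellular matrix protein.

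The members were distal. Only 55 of 2216 (2.48%, exact binomial 95% interval 1.88 to 3.22) lay within 1 kb of a RefSeq start site, against 29.4% (28.9 to 29.8) of the regions shared with all 3 lists. The share was 2.97% in P-MSC regions that overlapped 1 other list and 5.36% in those that overlapped 2, so the share was higher the more lists a region overlapped. A further 46.2% of the members were intronic and 48.9% intergenic, and 2.39% were exonic. Among the regions open only in femoral, vertebral or adipose MSCs the promoter shares were 1.81%, 1.81% and 3.03% (1.46 to 2.22, 1.30 to 2.43 and 2.43 to 3.73), and all 3 intervals overlapped that of the members. These intervals cover counting error only.

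**Figure D1:**
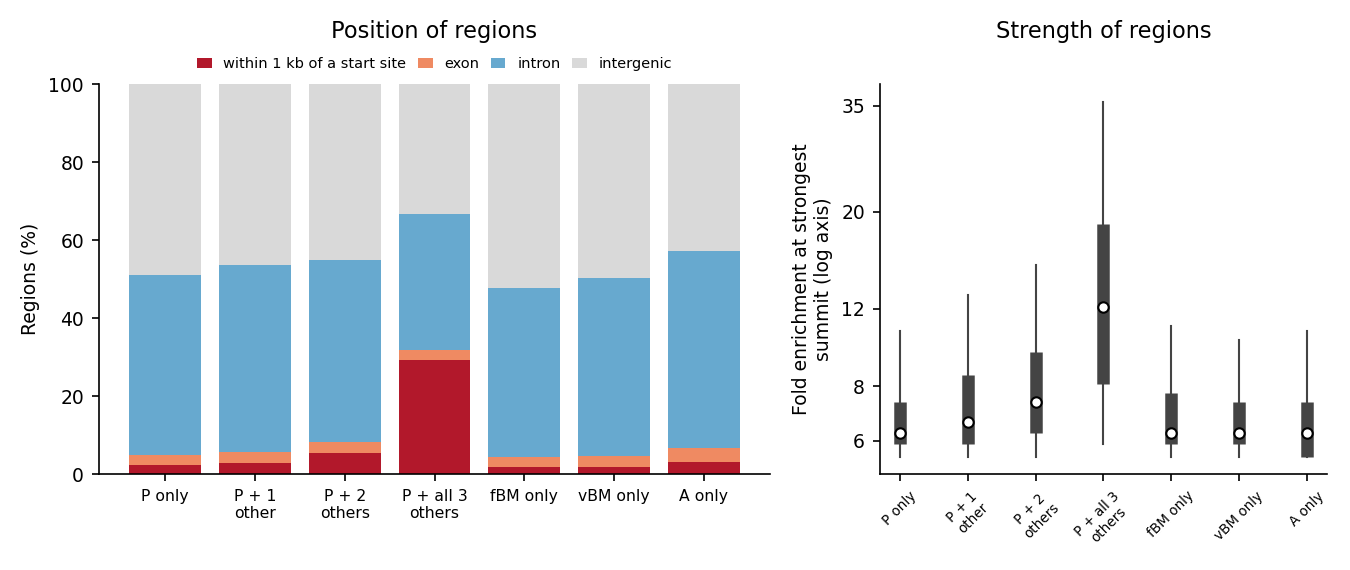
Left, percent of regions (vertical axis) within 1 kb of a start site, in exons, in introns and between genes, for P-MSC regions by the number of other lists they overlapped and for the regions open only in each other tissue. Right, fold enrichment at the strongest summit on a log axis, with the median (point), quartiles (thick bar) and the 5th to 95th percentile (line). The regions shared with all 3 lists stand out by their promoter share (29.4%) and their median (12.1).

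In base composition the members were more AT-rich than the other P-MSC regions. GC content in the 200 bp around the summit had a median of 43.8% in the members, 45.3% and 46.8% in regions overlapping 1 and 2 other lists, and 51.2% in those overlapping all 3. The median share of repeat-masked bases was 10.4% against 0% in the regions shared with all lists, and 7.18% of the members lay mostly in repeats against 2.38%. In regions overlapping 1 and 2 other lists that share was 7.46% and 5.28%. Members were found on all of chromosomes 1 to 19, the only ones in the lists, and made up between 3.41% (chromosome 11) and 5.03% (chromosome 16) of the P-MSC regions of a chromosome.

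Sequence motifs were counted within 100 bp of each strongest summit, on both strands. The sequence was no part of the selection. The T-box motif AGGTGT was present in 211 members (9.52%, exact binomial 95% interval 8.33 to 10.8) and in 5.95% of all P-MSC regions past the threshold. Its share was 6.54% (5.87 to 7.25), 6.58% (6.05 to 7.14) and 5.55% (5.33 to 5.78) in P-MSC regions overlapping 1, 2 and 3 other lists. In the regions open only in another tissue it was 4.05% (3.53 to 4.64) in fBM-MSCs, 3.74% (3.01 to 4.6) in vBM-MSCs and 5.45% (4.64 to 6.36) in A-MSCs. The interval of the members lay above all 6 others. The forkhead motif TGTTTAC was present in 5.42% of the members (4.51 to 6.44), against 2.71% (2.56 to 2.88) of regions shared with all 3 lists and 1.71% (1.26 to 2.26) of A-MSC-only regions. Its interval overlapped those of regions overlapping 1 other list (4.25%, 3.71 to 4.84) and of vBM-MSC-only regions (4.17%, 3.40 to 5.07), so no difference from these was shown.

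AP-1, GATA, RUNX and TEAD sites did not set the members apart from all other sets. AP-1 sites (TGACTCA or TGAGTCA) were found in 37.9% of the members, the most frequent of 22 motifs. Away from start sites the share was 37.9% (35.9 to 40) against 39.5% (38.9 to 40.1) in regions shared with all 3 lists. There it was 34.1% in fBM-MSC-only regions but 18.9% in A-MSC-only and 7.93% in vBM-MSC-only regions. GATA sites (AGATAA or AGATAG or TGATAA or TGATAG) were in 29.6% of the members, below the 48.5% of A-MSC-only regions and above the 20.6% of fBM-MSC-only and 22.5% of vBM-MSC-only regions. RUNX sites (TGTGGT or TGCGGT), the motif of the bone factor Runx2, were in 17.4% (15.9 to 19.1) of the members against 41.0% (39.7 to 42.4) of fBM-MSC-only regions. TEAD sites (GGAATG) were in 21.3%, against 14.7%, 25.8% and 28.3% of the regions open only in fBM-, vBM- and A-MSCs.

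**Figure D2:**
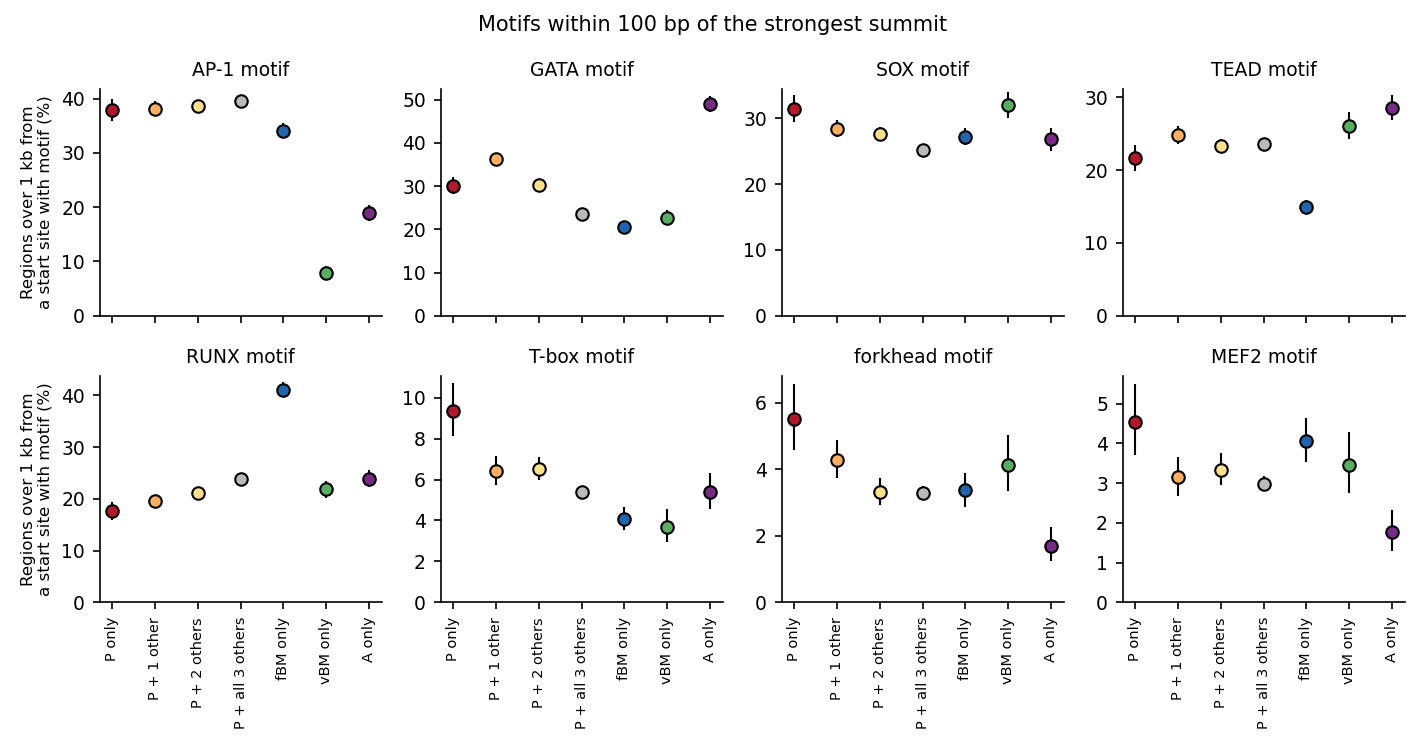
Percent of regions over 1 kb from a start site (vertical axis, a separate scale for each motif) that held a motif within 100 bp of the strongest summit, for 7 sets of regions. Points are shares and bars exact binomial 95% intervals. The T-box share of the members (9.35%) lies above all other sets, the AP-1 share (37.9%) does not.

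Base composition differed between the sets, and motif shares move with it. Distal regions were therefore split into 3 classes at a GC content of 40.8% and 46.8%, which divide the members about evenly. The T-box share of the members was 6.28%, 9.10% and 13.0% in the low, middle and high class. In regions shared with all 3 lists it was 3.85%, 4.69% and 6.17%, so it was higher in the members in each class. In A-MSC-only regions the values were 3.34%, 5.14% and 6.47%. The share of repeat-masked bases, which also differed between the sets, was not matched. The forkhead share of the members was 7.09%, 5.30% and 3.99%, against 3.97%, 4.10% and 2.68% in the shared regions. Of the 202 distal members with a T-box motif, 44.1% also held an AP-1 site and 4.46% a forkhead motif, against 37.9% and 5.51% of all distal members.

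AP-1 matches were centred on the summits. Within 40 bp of the summit there were 51.6 AP-1 matches per 1000 members in each 20-bp bin, against 2.84 at 400 bp or more, a ratio of 18.1. The ratio was 12.8 in the regions shared with all 3 lists. T-box matches were not centred in the members (9.36 against 9.97 per 1000, ratio 0.939), while in the shared regions they were depleted at the summit (5.49 against 11.6, ratio 0.472). Forkhead matches had ratios of 1.88 in the members, from 57 central matches, and 1.13 in the shared regions. In the members T-box matches were thus about as frequent at the summit as far from it.

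**Figure D3:**
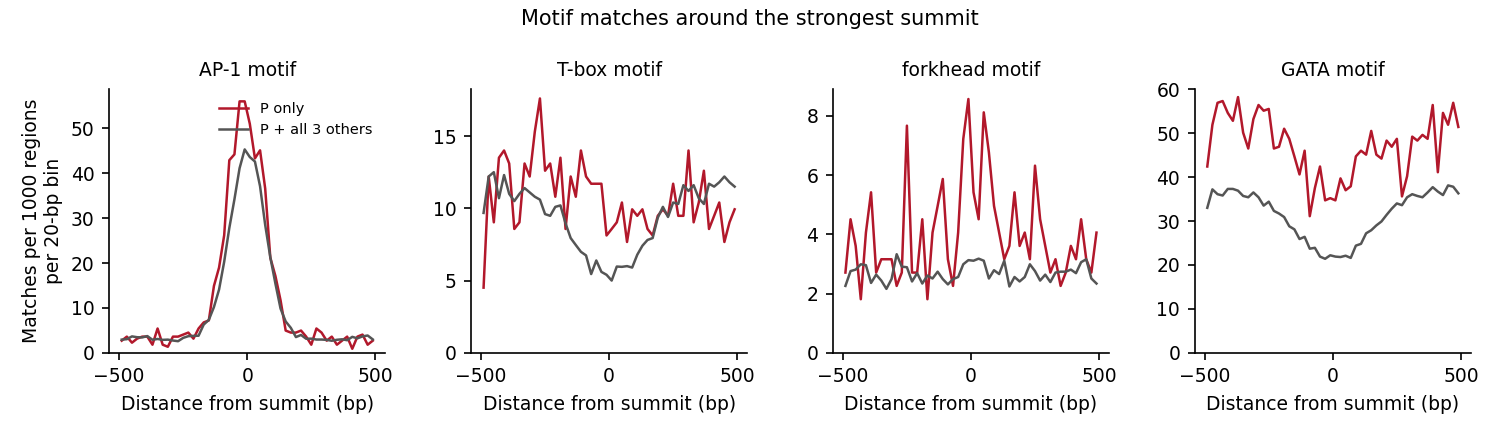
Motif matches per 1000 regions in 20-bp bins (vertical axis) against distance from the strongest summit (horizontal axis, bp), for the members (P only) and the P-MSC regions shared with all 3 other lists. AP-1 peaks at the summit in both sets, T-box matches dip at the summit only in the shared set.

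RNA-seq, which was no part of the selection, gave an independent measure of the genes around the members. Each member was assigned to the nearest start site within 100 kb, which placed 1638 members (73.9%) at 1459 genes. Of these genes 1367 were in the RNA-seq table and 878 passed the expression filter, 23 of them only through the P-MSC libraries. edgeR compared the P-MSC libraries with the average of the 3 remaining tissues (adjusted p under 0.05). In bulk cultures fewer cells of a type and less RNA per cell cannot be told apart. Of the 878 genes, 228 (26.0%) had more RNA in P-MSCs and 166 (18.9%) had less, where 22.3% of all 12509 tested genes were higher and 22.3% lower. Of the 778 genes with a single member 23.9% were higher (20.9 to 27.1) and 18.9% lower. Without the genes that passed the filter only through P-MSCs, the share of genes with a member that were higher was 24.8%, against 22% of all. For the 40 tested genes of members with a −log10 q above 20 it was 20%, below the 22.4% of all genes with a RefSeq match. Being higher than each other tissue held for 62 of the 878 genes (7.06%), against 7.11% of all tested genes with a RefSeq match. It held for 6.17% of genes with 1 member, 10.7% with 2 and 31.2% of the 16 with 3 or more. Ntf3, among the last, passed the filter only through P-MSCs. These shares describe the genes that passed the filter and are no test.

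The share higher was larger among genes with several members. Of 84 genes with 2 members 31 were higher (36.9%, exact binomial 95% interval 26.6 to 48.1) and 17 lower, and 28 of 81 were higher (34.6%) without the genes that passed the filter through P-MSCs alone. Of 16 tested genes with 3 or more members 11 were higher (68.8%, 41.3 to 89.0) and 2 lower, and their median log2 fold change was 1.62 against −0.01 over all tested genes. Without the genes that passed through P-MSCs alone, Ntf3 and Sgip1, 9 of 14 were higher and the median was 1.06. The share went down to 56.2% without P-MSC replicate 3, where 17.7% of all tested genes were higher. Genes with 3 or more regions open only in another tissue were higher in P-MSCs in 6 of 42 cases (fBM-MSCs), 1 of 12 (vBM-MSCs) and 7 of 36 (A-MSCs). P-MSC regions that overlapped 1 other list also gave a share above the background, 42.9% of 98 genes with 3 or more. For regions shared with all lists it was 20.9% of 3483 genes.

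**Figure D4:**
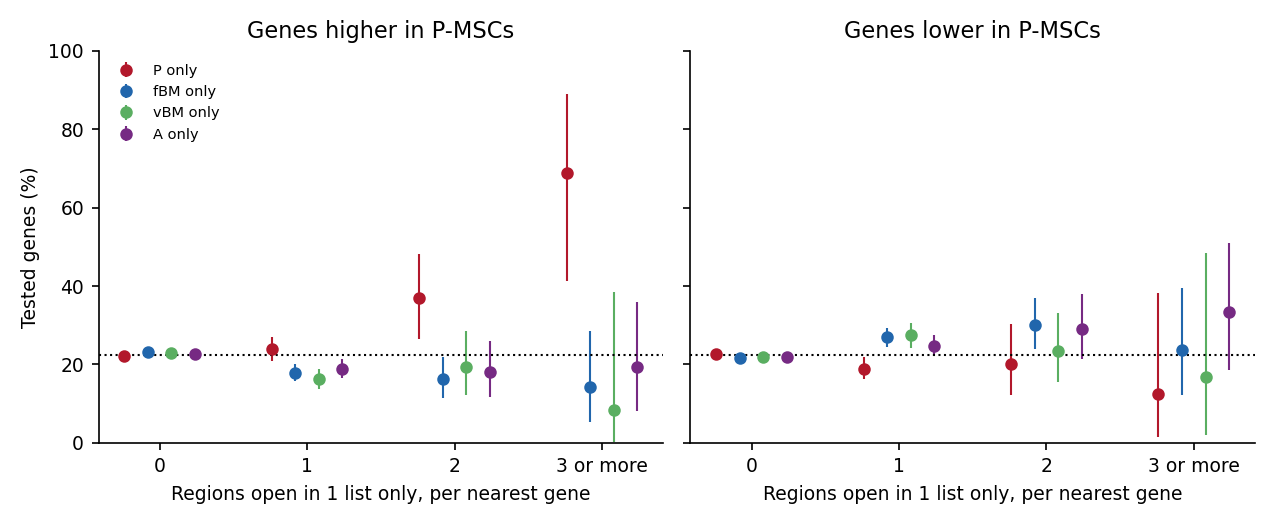
Percent of tested genes (vertical axis) higher (left) or lower (right) in P-MSCs than in the mean of the other tissues, by the number of regions open only in P-, fBM-, vBM- or A-MSCs of which the gene was the nearest (horizontal axis). Points are shares, bars exact binomial 95% intervals and the dotted line the share of all tested genes (22.3%). For the members the share higher reaches 68.8% at 3 or more, and for the other 3 sets it is 8.33% to 19.4%.

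Genes were also split by the motifs of their members. Of 97 tested genes nearest to members with a T-box motif 24.7% were higher, and of 802 nearest to members without it 26.6%. For the AP-1 motif the shares were 24.9% and 28.2%, for the forkhead motif 26.0% and 26.2%, and for the GATA motif 28.6% and 26.2%. All genes with a member together gave 26.0%, and all tested genes 22.3%.

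Tbx5, Tbx4 and Foxf1 were themselves nearest genes of members. Tbx5 had 3, between 1.31 and 42.7 kb from a start site, with fold enrichments of 5.52 to 5.89. Its TPM was 2.04, 2.41 and 3.43 in the P-MSC libraries, 1.31, 0.21 and 0.64 in fBM-MSCs, and 0 in both vBM-MSC and all 3 A-MSC libraries. The P-MSC libraries were above all others, while the fBM-MSCs came closest. Against fBM-MSCs the log2 difference was 1.74 ± 0.68 (SE) and did not pass the test (adjusted p = 0.0664). Against the tissues without a count the level was at least 152-fold (vBM-MSCs) and 252-fold (A-MSCs) higher, taking 3 counts over a group as the floor. Tbx4 had 1 member, chr11:85894584-85895443, with no line of another list within 29.7 kb. Its TPM was 5.73, 6.98 and 8.77 in P-MSCs, 1.39, 1.07 and 0.96 in fBM-MSCs, and at most 0.07 in the other tissues. The P-MSC libraries did not overlap any other, and Tbx4 was higher than in each tissue (against fBM-MSCs by 2.54 ± 0.55 log2 units, adjusted p = 0.00271). The log2 difference from the mean was 6.70 ± 0.53 (adjusted p = 2.90e-06), 7.90 without A-MSC replicate 1 and 7.5 without vBM-MSC replicate 1. Being higher than each of the 3 tissues held for 7.05% of all tested genes.

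Tbx20, a T-box factor best known from the heart, had 2 intergenic members, 36.6 and 60.8 kb from its start site. It was low everywhere, with a TPM of 0.18, 0.42 and 0.55 in P-MSCs, at most 0.05 in fBM-MSCs and 0 elsewhere. That was at least 33.3-fold above vBM-MSCs and 55.1-fold above A-MSCs by the same floor. Foxf1 had 1 member, chr8:121086141-121086514, an intronic region 1.94 kb from its start site with a fold enrichment of 5.52, right at the threshold. Its TPM was 20.4, 21.5 and 21.2 in P-MSCs, 12.7 and 6.24 in vBM-MSCs, 1.46 to 2.74 in A-MSCs and 0.14 to 1.12 in fBM-MSCs. The P-MSC libraries were the highest, by a log2 difference of 2.97 ± 0.35 from the mean of the others (adjusted p = 5.20e-05). The difference from vBM-MSCs, 1.03 ± 0.51, did not pass (adjusted p = 0.133).

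Of 30 lung mesenchyme transcription factors listed, 26 were tested. Of these, 12 were higher in P-MSCs than in the mean of the others and 1 lower, where 22.3% of all tested genes were called each way. Their median log2 fold change was 0.59 against −0.01 over all. Only Tbx4, Foxp1 and Osr1 were higher than each tissue. Tcf21, counted as higher, was lower than in A-MSCs (−2.50 ± 0.80, adjusted p = 0.0443). Gata6 and Tbx3 did not pass against A-MSCs (−0.51 ± 0.69 and 0.02 ± 0.19, adjusted p = 0.61 and 0.946). Of the 30, 5 were the nearest gene of a member, as were 5.9% of all genes of the RNA-seq table with a RefSeq match. Besides Tbx4, Tbx5 and Foxf1 these were Prrx1, a homeobox factor of limb and body mesenchyme (log2 difference 0.40 ± 0.13, adjusted p = 0.024), and Zeb2, a zinc finger repressor, which was lower (−0.69 ± 0.19, adjusted p = 0.0125). The call of Prrx1 was lost without any 1 of the P-MSC libraries (adjusted p 0.0686 without replicate 1, 0.0777 without replicate 2 and 0.07 without replicate 3) and that of Zeb2 without P-MSC replicate 1 (adjusted p = 0.0714). Osr1, Foxp1 and Tbx2 were higher in P-MSCs without a member. Osr1, an early mesoderm factor, stood at 48.4 ± 4.10 TPM (SD, n = 3) in P-MSCs and 15.5 ± 0.990 (n = 2) in vBM-MSCs, the next highest.

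Prdm6 had the most members. It encodes a chromatin-modifying protein expressed in smooth muscle. Its 7 members lay in its introns, between 3.27 and 72.0 kb from the start site on chromosome 18, with fold enrichments from 5.52 to 15.8, and no other 200-kb window held more. The 2 strongest were chr18:53471953-53472678 (15.8) and chr18:53468519-53469713 (12.9), 7.11 and 3.67 kb from the closest line of another list. Its TPM was 21.0, 20.6 and 22.3 in P-MSCs and at most 1.18 in the other 8 libraries. The log2 difference was 5.96 ± 0.77 (adjusted p = 9.54e-05), and it was 7.83 without A-MSC replicate 3 and 8.62 without vBM-MSC replicate 2, each the library with the highest value of its tissue. Of the 26 smooth muscle contractile genes tested 7 were higher, a share near the 22.3% of all tested genes, and 1 lower. Smtn, which binds actin in contractile cells, had 1 member and was higher than the mean (0.71 ± 0.10, adjusted p = 0.000153), although the A-MSC libraries (42.0 to 52.3 TPM) and the P-MSC libraries (45 to 51.1) overlapped. Pdlim3, a LIM protein of the muscle Z-disc with 1 member, did not pass against the mean (0.64 ± 0.71, adjusted p = 0.492). It was lower than in A-MSCs (−3.68 ± 0.90, adjusted p = 0.00988) and higher than in fBM-MSCs (4.27 ± 1.26, adjusted p = 0.0152), which had 1 count.

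**Figure D5:**
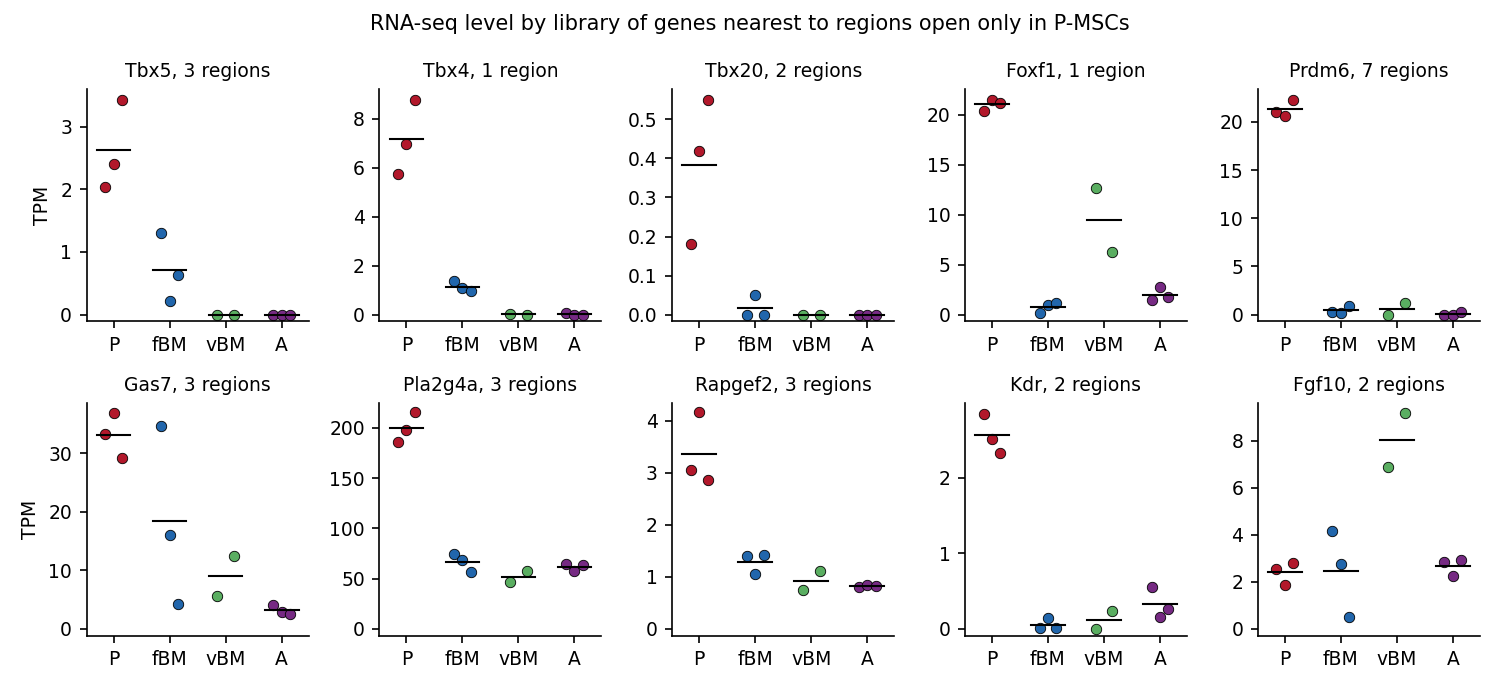
TPM (vertical axis, a separate scale for each gene) in each RNA-seq library for 10 genes nearest to members, by tissue. Points are libraries and lines group means. Tbx5, Tbx4, Tbx20, Foxf1, Prdm6, Pla2g4a, Rapgef2 and Kdr have P-MSC values above all other libraries, Gas7 overlaps with fBM-MSCs, and Fgf10 is not higher in P-MSCs.

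In all, 18 genes had 3 or more members, and 2 of them were too low to test. Pla2g4a, the cytosolic phospholipase that releases arachidonic acid for prostaglandin synthesis, had 3 intronic members and a TPM of 186, 198 and 216 in P-MSCs against 46.8 to 74.3 in the other 8 libraries. It was higher than each tissue, by 1.46 to 1.87 log2 units (from the mean by 1.61 ± 0.09, adjusted p = 3.55e-07). Gas7, an actin-associated protein, was at 29.2 to 36.8 TPM in P-MSCs, and fBM-MSC replicate 1 was as high (34.7). Its difference from the mean passed (1.91 ± 0.42, adjusted p = 0.00334) and that from fBM-MSCs did not (0.73 ± 0.54, adjusted p = 0.294). Fmn1, a formin that nucleates actin filaments, and Tcf4, an E-protein that binds E-boxes, differed little from the mean (0.51 ± 0.14 and 0.52 ± 0.16, adjusted p = 0.00963 and 0.0189). Both calls were lost without single P-MSC libraries, with an adjusted p of 0.06 and 0.0609 for Fmn1 without replicates 2 and 3, and of 0.0692 and 0.0866 for Tcf4 without replicates 1 and 3. By tissue, Tcf4 was lower than in fBM-MSCs (−0.51 ± 0.19, adjusted p = 0.0452). It was higher than in vBM-MSCs (0.78 ± 0.22, adjusted p = 0.0152) and A-MSCs (1.28 ± 0.20, adjusted p = 0.000811).

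Filip1l, Ntf3 and Sgip1 also had 3 members, lay outside the naming rule and were picked after their values were seen, as was Nedd4l, a ubiquitin ligase with 3 members that did not pass (−0.11 ± 0.11, adjusted p = 0.441). Ntf3 and Sgip1 passed the filter only through the P-MSC libraries. Filip1l, a regulator of cell migration, was at 58.7, 65.1 and 64.2 TPM in P-MSCs and at most 10.3 elsewhere (log2 difference 3.10 ± 0.23, adjusted p = 1.87e-06). Ntf3, the neurotrophin that signals to TrkC-bearing neurons, was at 8.18, 15.3 and 11.6 TPM against at most 2.14 (5.94 ± 0.67, adjusted p = 3.68e-05). Both were separate from all other libraries. Sgip1, an endocytic adaptor, was low in level, at 0.39 to 0.45 TPM in P-MSCs and at most 0.09 elsewhere (4.82 ± 1.14, adjusted p = 0.00498). Without A-MSC replicate 2 the difference of Ntf3 was 6.56. That of Sgip1 was 6.14, 6.45 and 5.63 without A-MSC replicate 1, fBM-MSC replicate 2 and vBM-MSC replicate 1.

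Several members at 1 gene did not always go with more RNA. Cpne8, a calcium-dependent phospholipid-binding protein, had 3 intergenic members, among them one with a fold enrichment of 19.5, and was lower in P-MSCs than in the mean (−0.78 ± 0.19, adjusted p = 0.00528). Its TPM was 20.4 to 23.7 in P-MSCs, 17.3 to 25.3 in A-MSCs and 28.4 to 45.2 in both marrow MSCs, so the P- and A-MSC libraries overlapped. Ablim3, an actin-binding LIM protein, had 3 intronic members, with fold enrichments up to 17.3, and the lowest TPM of all libraries in P-MSCs (0.22 to 0.39, against 0.43 to 1.89). Its log2 difference from the mean was −1.78 ± 0.46 (adjusted p = 0.00856). Fgfr2, the receptor that in lung epithelium answers to Fgf10, had 3 members and did not pass against the mean (−0.37 ± 0.29, adjusted p = 0.34), being lower than in vBM-MSCs (−1.30 ± 0.38, adjusted p = 0.0185). Tmcc3 did not pass either (−0.10 ± 0.29, adjusted p = 0.806). Thsd4, a matrix protein that helps to assemble fibrillin, had 2 members and was at most 0.05 TPM in both P- and A-MSCs, which did not differ past the threshold (0.31 ± 1.25, adjusted p = 0.874). Its lower call against the mean (−3.21 ± 1.05, adjusted p = 0.0272) was −4.21 without P-MSC replicate 1 and was lost without A-MSC replicate 2 (−1.55, adjusted p = 0.953) and without P-MSC replicates 2 and 3 (adjusted p = 0.0821 and 0.087).

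Of 26 tested signalling genes of lung mesenchyme 4 were higher and 12 lower (22.3% of all tested genes each way), with a median log2 difference of −0.74 against −0.01 over all, and 6 of the 32 listed had 11 members in all. Fgf10, the growth factor that drives lung branching, had 2 intronic members and was at 1.88 to 2.81 TPM in P-MSCs, below vBM-MSCs (6.91 and 9.17) and overlapping A-MSCs (2.26 to 2.93) and fBM-MSCs (0.51 to 4.18). Its difference from the mean (−0.77 ± 0.45) did not pass (adjusted p = 0.185), but did without fBM-MSC replicate 3 (−0.94, adjusted p = 0.00345). Grem1, a secreted BMP antagonist, had 2 intergenic members next to each other, 13.1 and 14.8 kb from its start site. It was higher than the mean (1.30 ± 0.22, adjusted p = 0.000661), with 157 to 173 TPM in P-MSCs and 103 to 171 in fBM-MSCs, which overlapped. Among 19 elastic fibre genes 5 were higher and 5 lower, near the 22.3% of all tested genes each way. Ltbp1, which holds latent TGF-beta in the matrix, had 2 intronic members and a difference from the mean of 1.09 ± 0.20 (adjusted p = 0.00117). Its P-MSC libraries (92.2 to 96.9 TPM) overlapped fBM-MSC replicate 3 (93.5), and the difference from fBM-MSCs did not pass (0.39 ± 0.26, adjusted p = 0.229). Fbn1, the fibrillin of microfibrils, had 1 member and did not pass (−0.46 ± 0.26, adjusted p = 0.181). Of 21 fibrillar and basement membrane collagens 2 were higher and 10 lower, against the same 22.3% each way, and 2 of the 24 listed had a member. Crabp1 of the signalling list, Eln of the elastic fibre list and Col4a4 of the collagens passed the filter only through the P-MSC libraries.

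Kdr, the VEGF receptor, had 2 intergenic members 52.3 and 78.1 kb from its start site. Its TPM was 2.84, 2.51 and 2.33 in P-MSCs and at most 0.55 in the other libraries, and it was higher than each tissue (4.16 ± 0.71 from the mean, adjusted p = 0.000652, and 6.42 without vBM-MSC replicate 2 and 4.80 without fBM-MSC replicate 2). Kdr passed the filter only through the P-MSC libraries. Emcn, another endothelial marker, was at 5.13, 4.69 and 0.14 TPM in P-MSCs, at most 0.21 in both marrow MSCs and 2.32 to 49.5 in A-MSCs. Pecam1, Cdh5, Tek and Tie1 were below 1 TPM in every P-MSC library, as were 8 of the 11 listed. The summed level of the list was 6.68 to 15.1 TPM in P-MSCs, 3.97 to 8.04 in fBM-MSCs, 4.87 to 6.51 in vBM-MSCs and 6.24 to 59.3 in A-MSCs. Vcam1, an adhesion molecule of MSCs, had 1 intronic member 88 bp from a line of another list, and stood at 113 to 117 TPM against 29.3 to 71.8 (1.16 ± 0.15, adjusted p = 0.000111). It was the 1 higher gene of 7 MSC surface markers, of which 3 were lower and the median log2 difference was −0.50 (22.3% of all tested genes were called each way). Cd44, the other with a member, did not pass (−0.50 ± 0.23, adjusted p = 0.103), and Ly6a was at 42.3 to 46.5 TPM in P-MSCs against 114 to 805 elsewhere. Nfib, a factor needed for lung maturation, had 1 intronic member and was also higher than each tissue (1.34 ± 0.15, adjusted p = 2.89e-05).

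The 55 members at start sites belonged to 54 genes, of which 29 were tested, 9 were higher and 2 lower, where 22.3% of all tested genes were called each way. The lower ones, named after their values were seen, were Fst, an activin antagonist (log2 difference −1.11), and Tacc1 (−1.09). Rapgef2, an exchange factor for the small GTPase Rap, was the only one higher than each tissue. Besides the member 183 bp from its start site, chr3:79145368-79145836, it had 2 intronic members, 19.5 and 21.4 kb from the start. Its TPM was 3.05, 4.17 and 2.86 in P-MSCs and 0.74 to 1.42 in the other libraries, which did not overlap (1.63 ± 0.19, adjusted p = 4.57e-05). The promoter member lay 313 bp from a line of another list.

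Among the windows of 200 kb with the most members, those around Prdm6 and Tbx5 held 7 and 4. A window on chromosome 19 (44000001 to 44200000) held 5 members, of fold enrichment 6.25 to 8.83, beside Chuk, the kinase IKK-alpha, and 5 other genes. Chuk was at 48.2 to 52.7 TPM in P-MSCs against 16.2 to 37.7 elsewhere (0.86 ± 0.12, adjusted p = 0.000151), although its difference from A-MSCs did not pass (0.31 ± 0.15, adjusted p = 0.131). Of its neighbours in the window Erlin1, without a member, just passed (0.50 ± 0.19, adjusted p = 0.0499), a call lost without any 1 of the P-MSC, A-MSC or vBM-MSC libraries (adjusted p 0.0608 to 0.132). Cwf19l1, with 1 member (0.43 ± 0.19, adjusted p = 0.0789), and Bloc1s2, without one (0.10 ± 0.10, adjusted p = 0.434), did not pass. A window on chromosome 16 (42600001 to 42800000) held 4 members, up to a fold enrichment of 14.7, and 1 gene, 4932412D23Rik. Members within 50 kb of another made up 18.5% of all, against 27.0%, 17.3% and 23.3% of the regions open only in fBM-, vBM- and A-MSCs.

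The families that bind the motifs were read against the 22.3% of all tested genes called in each direction. Of 9 tested T-box factors 5 were higher in P-MSCs (Tbx2, Tbx3, Tbx4, Tbx5 and Tbx20) and none lower. Tbx15, which had 1 member, had a mean TPM of 15.1 in femoral and 12.1 in vertebral marrow MSCs, 2.5 in P-MSCs and 0.367 in A-MSCs, and its log2 difference of −0.84 ± 0.34 did not pass (adjusted p = 0.0663). Tbx20 and Eomes passed the filter only through the P-MSC libraries, so Tbx20 could hardly have been called otherwise than higher. Tbx3 stood at 7.68 ± 0.217 TPM (SD, n = 3) in P-MSCs and 6.61 ± 1.64 (n = 3) in A-MSCs. Of 19 forkhead factors 4 were higher (Foxf1, Foxl1, Foxm1 and Foxp1) and 4 lower, near that share. The 14 tested genes of the AP-1 list took in the related Maf factors. Of these 14, Jun was higher and Fos, Maf, Maff and Mafk were lower. Jun had 2 members and was at 43.3 to 52.7 TPM against 16.7 to 48.0 (0.68 ± 0.19, adjusted p = 0.0127), a call that was lost without P-MSC replicate 2 (adjusted p = 0.0652). Fosl1, the most abundant Fos family member, was at 85.7 ± 2.53 TPM in P-MSCs and did not pass the test. Runx1 and Runx2 were lower, as was Cbfb, the partner of the RUNX factors, while Runx3 did not pass (adjusted p = 0.0794). By tissue, Runx1 passed only against A-MSCs (−1.10 ± 0.16, adjusted p = 0.000585) and Runx2 only against fBM-MSCs (−1.72 ± 0.31, adjusted p = 0.000837). Of 4 tested GATA factors 3 were higher (Gata2, Gata4 and Gata6) and none lower, although the call of Gata6 was lost without P-MSC replicate 2 or 3 (adjusted p 0.0586 and 0.0695). None of the GATA factors was higher than each tissue. The mean TPM in P- and A-MSCs was 18.4 and 19 for Gata2, 3.56 and 4.41 for Gata6, and 1.59 and 0.753 for Gata4. Of 8 TEAD factors and partners Tead2 and Tead4 were higher and Wwtr1 was lower. The call of Runx2 was lost without each P-MSC library in turn (adjusted p 0.093, 0.0592 and 0.0524 without replicates 1, 2 and 3). Fos also lost its call without each P-MSC library (adjusted p 0.159, 0.0913 and 0.0525).

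The RNA of the P-MSC cultures also differed in genes without members. Of 31 tested genes of chromosomal replication 30 were higher in P-MSCs and none lower, where 22.3% of all tested genes were called each way, with a median log2 fold change of 1.99, and none of the 32 listed was the nearest gene of a member. Their part in the other RNA differences was not tested. Lung epithelial markers were near 0 in P-MSCs: 12 of 13, with Sftpc, Scgb1a1, Nkx2-1 and Epcam among them, were below 1 TPM in every library. Of 16 macrophage markers 11 were below 1 TPM in P-MSCs, including Ptprc and Adgre1. Mgl2, a lectin of macrophages and dendritic cells, was at 14.1, 12.8 and 15.4 TPM in P-MSCs and at most 0.03 elsewhere. Csf1r, a receptor that had 1 member, was at 2.21 to 2.76 TPM in P-MSCs, between A-MSCs (5.46 to 6.56) and both marrow MSCs (0.6 to 1.16), and Itgam, also with 1 member, was at most 0.04. The summed list was 28.1 to 32.2 TPM in P-MSCs, 45.3 to 72.5 in fBM-MSCs, 24.6 to 55 in vBM-MSCs and 19 to 29.1 in A-MSCs. The part of such cells in the RNA differences was not tested. Of the 7 mesothelial markers Wt1, Upk3b, Lrrn4 and Gpm6a were below 1 TPM in P-MSCs. Krt19 was at 51.7 to 59.8 TPM, Upk1b at 21.3 to 35.9 and Msln at 1.61 to 2.94, each above both marrow MSCs. The summed list reached 76.2 to 98.8 TPM, against 109 to 160 in A-MSCs, 18.9 to 23.9 in vBM-MSCs and 2.32 to 14.6 in fBM-MSCs. Of the 7 mesothelial markers 3 were higher in P-MSCs than in the mean, where 22.3% of all tested genes were, while the median log2 difference of the list was −1.72, and none was the nearest gene of a member. MSC surface markers summed to 1440 to 1540 TPM, with Nt5e below 1.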

How the data were processed

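Cultured mouse MSCs of 4 tissues were assayed by RNA-seq (11 libraries) and ATAC-seq (1 pooled list per tissue). The RNA-seq values were deposited as RSEM expected counts and as TPM. Per the study's methods the authors aligned these reads to mm10 with STAR. Smart-seq2 libraries are not strand specific, so antisense partners cannot be told apart. The authors trimmed ATAC-seq reads with Trim Galore, aligned them with Bowtie, removed duplicates with Picard, corrected positions for the Tn5 cut, left out blacklisted regions, and ran MACS2 with summit calling and no local lambda. Each line of the deposited lists holds a fold enrichment, a −log10 q and a summit offset. Tool versions are not given in the sources used here. Pooling 6 sequencing samples per tissue leaves no replicate error, and the lists depend on depth, which they do not give.

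After rounding, the expected counts entered edgeR 4.0.16 (R 4.3.3, TMM, quasi-likelihood F test, two-sided, all 11 libraries in 1 fit, Benjamini-Hochberg adjusted p under 0.05) on 12509 of 24411 genes that reached a CPM of 1 in 2 or more libraries. P-MSCs were compared with the mean of the other tissues and with each tissue. Of the tested genes, 12063 matched a RefSeq gene on chromosomes 1 to 19, to which the counts over gene lists are limited. On simulated counts with 200 of 12509 genes changed, 56% of 2-fold and 81% of 4-fold changes were recovered, and 4.86% of calls were false. All other means were the same in every tissue there, whereas the data gave 2788 higher and 2794 lower calls. The simulated shares therefore need not hold for the data. Depth ranged from 19569650 to 40517739 expected counts. P-values measure the spread between these libraries. One vertebral library was not analysed here. Positions, sequences and motifs came from RefSeq on GRCm38.p6, with curated transcripts, and shares have exact binomial 95% intervals.

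The members and lists were chosen with earlier results of these data known. Named were the 10 strongest members, the 10 genes with the most members, genes with a member at a start site that were higher than each tissue, up to 3 genes with members per list and all such lung mesenchyme factors, the 5 windows of 200 kb with the most members and the 3 genes with the most members among those lower. Other genes named were picked after their values were seen. Thresholds, normalization, filters, DESeq2 1.42.0 and single libraries were varied. Results for 1 gene that the rule named are not reported here.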

Additional observations from a re-analysis of the deposited data

How the results depend on the processing

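The number of members followed the thresholds: 974 at −log10 q above 10, 134 above 20, and 6978 when only lines of the other lists above 7 counted as overlap. The share at start sites was 7.08% within 2.5 kb, 5.46% with predicted transcripts, 4.69% with the looser overlap and 1.78% with no other line within 500 bp. Within 50 bp of the summit the motif shares were 22.7% (AP-1), 15.5% (GATA), 4.74% (T-box) and 3.16% (forkhead), and above a −log10 q of 20 they were 45.5%, 33.6%, 14.2% and 6.72%. The share of nearest genes that were higher was 21.4% with no filter on low counts (15.9% of all genes), 20% above a −log10 q of 20 (40 genes, against 22.4% of all), and 20.7% to 28.6% without a library (17.4% and 23.6% of all genes). Same-numbered libraries were not treated as paired, because the labels do not give the mouse of a library. The correlations of their deviations from the tissue means were −0.028 to 0.125. The highest, between fBM- and vBM-MSC replicate 1, was mirrored by −0.125 with vBM-MSC replicate 2. With so few libraries per tissue these values cannot decide whether libraries share a mouse. With the replicate number as a block (replicate block) 2790 genes were higher and 2690 lower, against 2788 and 2794, and the nearest-gene share was 27.1%. For genes with 3 or more members, a split added after the data were seen, the share was 61.1% with no filter on low counts and 56.2% to 68.8% without a library. Over the alternatives for 45 named genes, 581 results kept their direction and side of the threshold, 43 lost the call and 1 gained it. In the other 3 Tmcc3, which was not called, turned from −0.10 to 0.04 without fBM-MSC replicate 1, to 0.02 without vBM-MSC replicate 2 and to 0.00 with the replicate block (range without a library −0.23 to 0.04). The ATAC-seq values have no replicates and an unknown depth, which limits all counts of regions.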
